A study of Mus musculus with 9 samples.

Results

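The 7 genes described here, Ly6a, Ly6c1, Ly6c2, Ly6d, Ly6e, Ly6i and Ly6k, belong to the Ly6 family and were chosen by symbol, with their values in these libraries known, from the 24346 gene symbols for which FPKM, an expression level scaled to transcript length and sequencing depth, was deposited. RNA-seq was performed on sorted splenic B cells of C57BL6 mice, in 3 libraries each of FO B (Young), follicular B cells of mice 8 weeks old, of FO B (Aged), follicular B cells of mice 50 weeks old, and of ABCs (Aged), age-associated B cells of mice 50 weeks old. Neither a transgene nor a treatment was given for any of these groups. According to the methods of the study, both populations were B220 high, CD43- and CD21 low, with FO B cells CD23+ and ABCs CD23-, CD11b+ and CD11c+. The study counts its RNA-seq groups in mice, as many as there are libraries, although the labels name no mouse, and the p-values below measure the spread between these libraries.

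Ly6 proteins are small and rich in cysteine. They share a fold of short loops held by disulfide bonds, and most are tethered to the outer face of the cell membrane by a glycosylphosphatidylinositol (GPI) anchor. In lymphocytes several of them mark a lineage or an activation state, and Ly6a, Ly6c and Ly6e are known to be raised by interferons. Ly6d is a marker of B lineage commitment, Ly6a encodes the stem cell antigen Sca-1, which activated lymphocytes also carry, and Ly6c1 and Ly6c2 encode the Ly6C antigen of monocytes and plasma cells. Ly6e restricts the entry of some viruses, and Ly6k is best known from sperm.

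The 7 genes lie in a single stretch of chromosome 15, from 74762056 to 75111970 (GRCm38, GENCODE M21), which is 349915 bases long and holds 23 annotated genes, 13 of them protein-coding. From the low coordinate up, Ly6d spans 74762056 to 74763620, Ly6k 74796874 to 74799986, Ly6e 74955051 to 74959905, Ly6i 74979534 to 74983430, Ly6a 74994877 to 74998031, Ly6c1 75044018 to 75048830 and Ly6c2 75108158 to 75111970. Ly6e is on the plus strand and the other genes are on the minus strand. Ly6k overlaps the annotated gene Gm17189, whereas no other of the 7 overlaps another annotated gene.

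Ly6c1 and Ly6c2 are copies of each other, with coding sequences of 393 bases each that differ at 9 positions (97.7% identity). The first 150 coding bases, from the start codon and with the 6 differing bases of this stretch in capitals, are shown because bases of this kind tell the copies apart, and 3 more lie further along the coding sequence.

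Ly6c1: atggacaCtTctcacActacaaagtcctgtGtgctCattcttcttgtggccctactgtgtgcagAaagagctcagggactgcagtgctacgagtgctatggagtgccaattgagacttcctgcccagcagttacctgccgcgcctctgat

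Ly6c2: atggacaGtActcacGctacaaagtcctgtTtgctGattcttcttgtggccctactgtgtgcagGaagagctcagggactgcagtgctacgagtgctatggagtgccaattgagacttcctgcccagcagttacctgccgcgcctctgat

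Over the transcripts chosen for each gene, 568 of the 722 read-length windows of Ly6c2 (78.7%) matched Ly6c1 with at most 2 mismatches, and 112 windows (15.5%) were identical. For Ly6c1 the matching windows were 568 of 744 (76.3%). Ly6a shared 23 of 855 windows with Ly6i and 40 with Ly6c1, and Ly6d and Ly6e shared none with any annotated transcript of another gene. Ly6k shared 120 of its 691 windows (17.4%) with Gm17189, all but 2 of them identical, and the sources used here do not state whether strand was used in counting. The values of Ly6c1 and Ly6c2, and of Ly6k, therefore depend on how reads common to both genes were assigned.

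**Figure D1:**
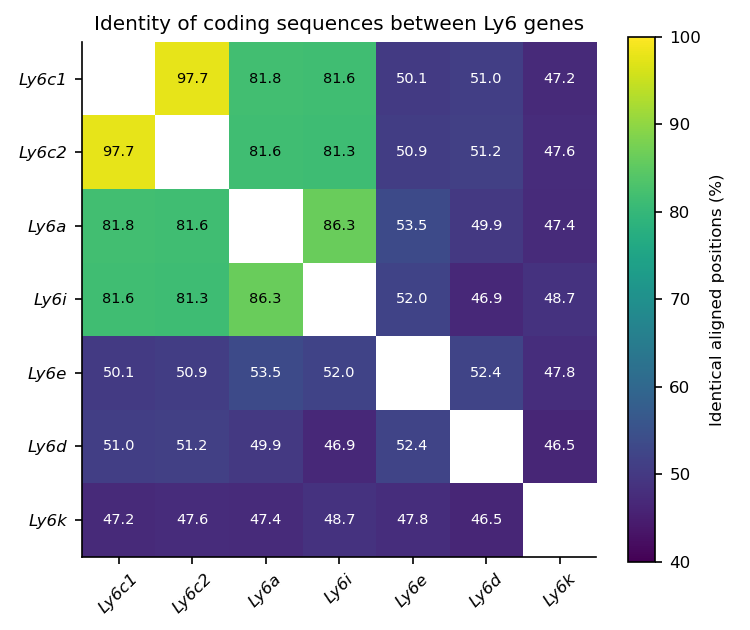
Percent of identical positions in pairwise alignments of the coding sequences of the 7 Ly6 genes, with gaps counted as differences; each cell is a pair of genes. Ly6c1 and Ly6c2 stand at 97.7%, Ly6a and Ly6i at 86.3%, and pairs with Ly6d, Ly6e or Ly6k between 46.5% and 53.5%.

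Promoter sequence from RefSeq (GRCm38.p6) was given for 2 of the 7 genes, Ly6c1 and Ly6c2. Of the 2 starts listed for each gene, only the one nearest its annotated start was used, also for the motifs below. The 250 bases before that start are shown because the near-identical coding sequences are preceded by less similar ones. A local alignment of 227 columns held 164 identical positions (72.2%). The Ly6c1 segment is chr15:75048838-75049087 and the Ly6c2 segment is chr15:75111972-75112221, both on the minus strand.

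Ly6c1: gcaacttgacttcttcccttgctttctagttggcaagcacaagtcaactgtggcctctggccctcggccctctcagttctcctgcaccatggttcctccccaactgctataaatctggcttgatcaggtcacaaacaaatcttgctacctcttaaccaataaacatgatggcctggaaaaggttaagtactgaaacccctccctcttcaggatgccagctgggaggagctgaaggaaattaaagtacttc

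Ly6c2: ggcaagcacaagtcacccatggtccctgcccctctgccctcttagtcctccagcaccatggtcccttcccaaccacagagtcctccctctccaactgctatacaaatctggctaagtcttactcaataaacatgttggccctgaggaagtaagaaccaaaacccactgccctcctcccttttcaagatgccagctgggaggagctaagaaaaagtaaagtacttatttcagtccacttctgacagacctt

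Neither segment held GAAANNGAA (the core of the interferon-stimulated response element), TTCNNNGAA (the gamma-activated site) or TCACACCT (a T-box site), searched on both strands. Among 32851 RefSeq promoter segments of the same length, 7.13%, 7.02% and 1.12% held these motifs.

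Approximately 8150000 to 9910000 mapped reads underlay each library, as estimated from the size of the smallest FPKM steps, and 10032 to 10445 genes reached 1 FPKM. The sort was visible in the RNA, with Fcer2a (CD23) at 984, 714 and 3.86 FPKM on average in FO B (Young), FO B (Aged) and ABCs (Aged), and Itgax (CD11c) at 0.0789, 0.115 and 50.7 FPKM. Spn, which encodes CD43, was at 67.8 FPKM in ABCs (Aged) and 3.05 FPKM in FO B (Aged), although CD43- cells were sorted. ABC replicate 3 stood apart from the other ABC libraries, with the B cell marker Ms4a1 at 793 FPKM against 1118 and 1080.3 FPKM, while plasma cell markers went both ways, with Sdc1 at 29.5 FPKM against 9.54 and 8.37 FPKM, Jchain at 12.5 FPKM against 61.6 and 40.5 FPKM and Prdm1 at 2.93 FPKM against 5.70 and 4.74 FPKM. Fold changes that rest on the ABC libraries are therefore also given without it.

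Ly6d, Ly6e and Ly6a were among the most abundant transcripts of all 9 libraries, Ly6c2 and Ly6k were at moderate levels, and Ly6c1 and Ly6i were at or near the limit of detection. In ABCs (Aged), Ly6a and Ly6c2 were higher and Ly6d was lower than in FO B (Aged), while Ly6e differed little. In the age comparison of FO B cells, Ly6c2 was lower in the aged mice. The members were selected on these values, so levels, fold changes and calls of the 7 genes are a description, given without p-values. The share of all genes whose libraries did not overlap between groups was not counted. A lack of overlap, here and for the list genes below, is therefore not read as unusual.

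**Figure D2:**
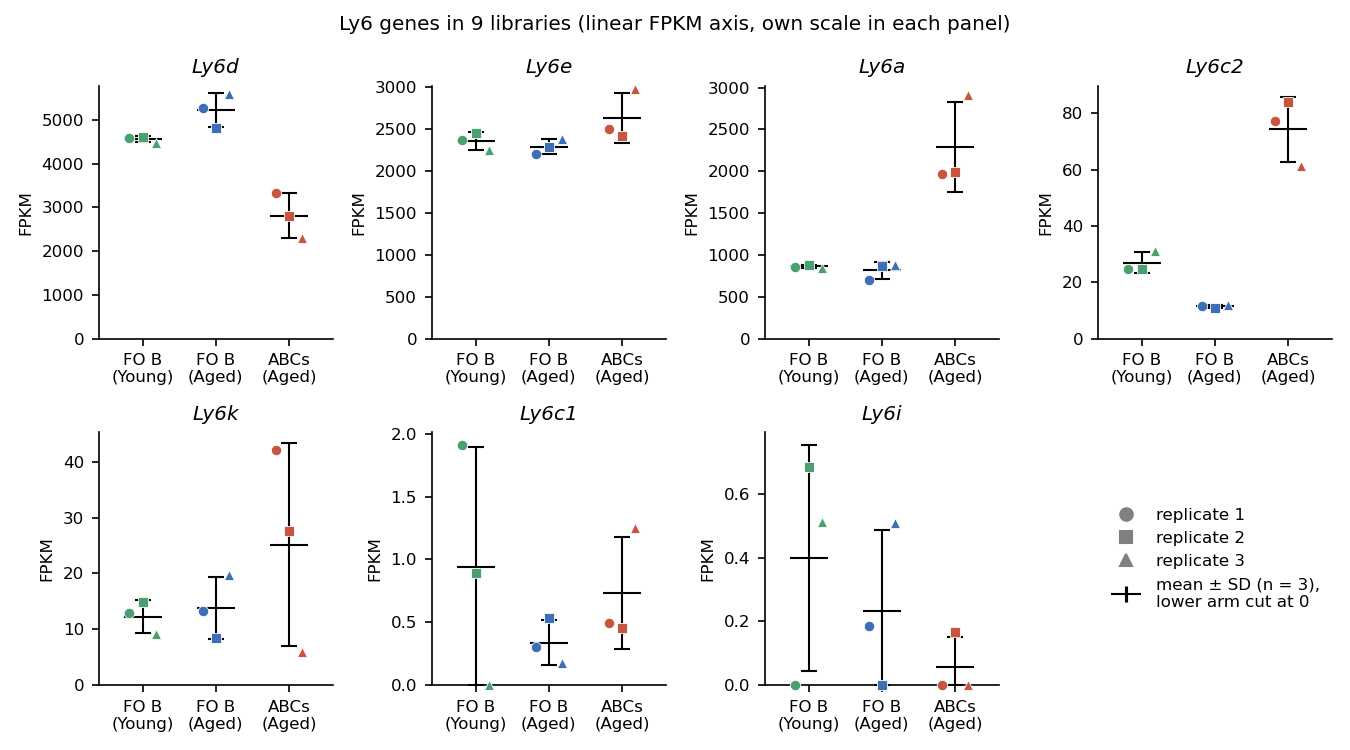
FPKM of each Ly6 gene (y axis, linear, own scale in each panel) in FO B (Young), FO B (Aged) and ABCs (Aged); symbols are libraries, and bars are the mean ± SD of 3 libraries. Ly6c2 shows 3 separate levels, between 10.8 and 11.9 FPKM in FO B (Aged), 24.7 and 31.2 FPKM in FO B (Young) and 61.3 and 84.1 FPKM in ABCs (Aged).

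Ly6d, the B lineage marker, was the most abundant of the 7 in both FO B groups. It stood at 4588, 4614 and 4478 FPKM in FO B (Young), at 5273, 4823 and 5591 FPKM in FO B (Aged) and at 3328, 2794 and 2301 FPKM in ABCs (Aged). All ABC libraries were below all FO B libraries, and all FO B (Aged) libraries were above all FO B (Young) libraries. The means were 4560 ± 72.4, 5229 ± 386 and 2808 ± 513 FPKM (SD, n = 3), so that ABCs (Aged) had 0.537 times the level of FO B (Aged). The log2 fold change of FPKM + 1 was -0.91 (SE 0.14) for ABCs (Aged) against FO B (Aged) and -0.78 without ABC replicate 3. In FO B (Aged) against FO B (Young) it was 0.20 (SE 0.07), and 0.056 under quantile normalization.

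Ly6a, the Sca-1 gene, stood at 857, 882 and 848 FPKM in FO B (Young), at 697, 871 and 881 FPKM in FO B (Aged) and at 1965, 1994 and 2908 FPKM in ABCs (Aged). No ABC library overlapped with any of the 6 FO B libraries, and the FO B groups overlapped. With means of 862 ± 17.5, 817 ± 103 and 2289 ± 536 FPKM (SD, n = 3), ABCs (Aged) had 2.80 times the level of FO B (Aged). The log2 fold change was 1.47 (SE 0.17), and 1.28 without ABC replicate 3, the library with the highest value. Between the FO B groups it was -0.09 (SE 0.09), and 0.02 without FO B (Aged) replicate 1.

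The contrast between Ly6d and Ly6a can be read within each library, where scaling does not enter. Ly6d was 5.36, 5.23 and 5.28 times as high as Ly6a in FO B (Young), 7.56, 5.54 and 6.34 times in FO B (Aged), and 1.69, 1.40 and 0.791 times in ABCs (Aged). The ABC ratios were below all FO B ratios, and in ABC replicate 3 alone Ly6a was above Ly6d. The summed level of the 7 genes stayed between 7318 and 8893 FPKM in all libraries, and the ABC sums overlapped with those of both FO B groups. As a share of all FPKM it was 1.11%, 1.03% and 1.16% in ABCs (Aged), below the 1.21%, 1.17% and 1.24% of FO B (Aged) and overlapping with the 1.14%, 1.16% and 1.11% of FO B (Young). Within that sum, the share of Ly6d was 62.5% ± 2.03 in FO B (Aged) and 36.0% ± 7.31 in ABCs (Aged), and the share of Ly6a was 9.77% ± 1.2 and 29.1% ± 5.45 (SD, n = 3).

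**Figure D3:**
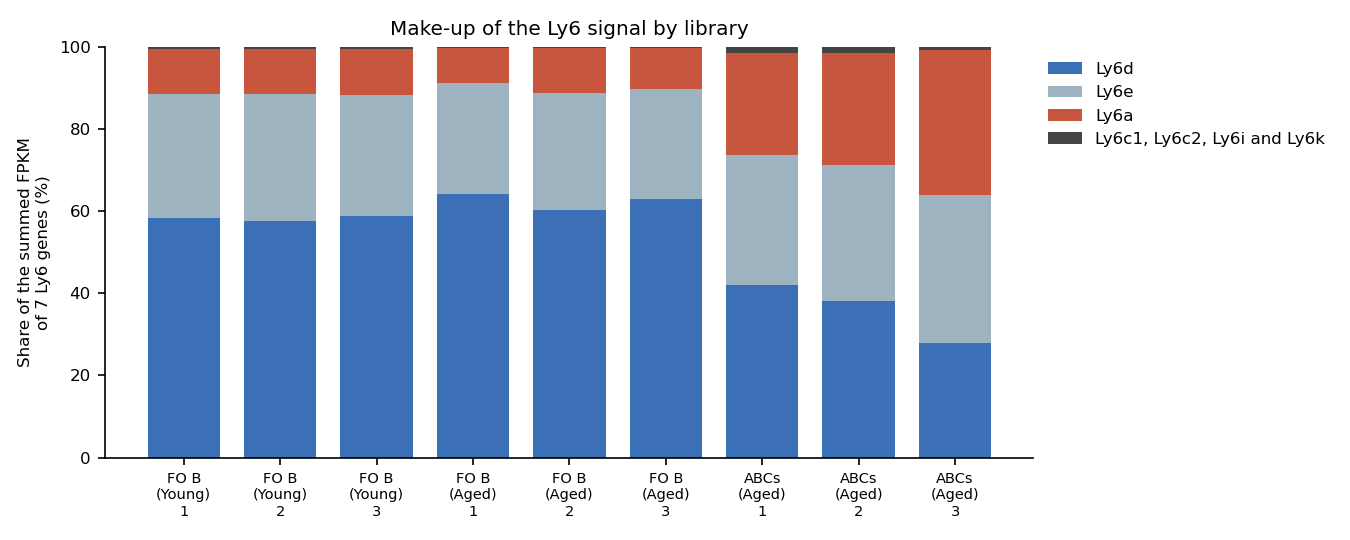
Share of the summed FPKM of the 7 Ly6 genes (y axis, %) taken by Ly6d, Ly6e, Ly6a and the other 4 genes together in each of the 9 libraries. Ly6d takes 57.7% to 64.3% in the FO B libraries and 27.9% to 42.0% in the ABC libraries, where Ly6a takes 24.8% to 35.2%.

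Ly6e, the virus restriction factor, was second in level among the 7 in the FO B libraries. It stood at 2366, 2460 and 2254 FPKM in FO B (Young), at 2204, 2285 and 2388 FPKM in FO B (Aged) and at 2506, 2418 and 2977 FPKM in ABCs (Aged). The ABC libraries lay above those of FO B (Aged) by a narrow margin, 2418 against 2388 FPKM at the nearest, and they overlapped with FO B (Young). With means of 2360 ± 103, 2292 ± 92.4 and 2634 ± 301 FPKM (SD, n = 3), the log2 fold change was 0.19 (SE 0.10) for ABCs (Aged) against FO B (Aged), and 0.10 without ABC replicate 3. It was -0.04 (SE 0.06) for FO B (Aged) against FO B (Young).

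Ly6c2, a gene of the Ly6C antigen, had the widest range of group means on the log2(FPKM + 1) scale among the 5 members that reached an average of 1 FPKM. It stood at 24.7, 24.8 and 31.2 FPKM in FO B (Young), at 11.7, 10.8 and 11.9 FPKM in FO B (Aged) and at 77.3, 84.1 and 61.3 FPKM in ABCs (Aged). No libraries of any pair of groups overlapped, in the order FO B (Aged), FO B (Young), ABCs (Aged). The means were 26.9 ± 3.73, 11.5 ± 0.554 and 74.3 ± 11.7 FPKM (SD, n = 3), so that ABCs (Aged) had 6.47 times the level of FO B (Aged) and 2.76 times that of FO B (Young), which in turn had 2.35 times the level of FO B (Aged). The log2 fold change was 2.58 (SE 0.12) for ABCs (Aged) against FO B (Aged), and 2.71 without ABC replicate 3. It was -1.15 (SE 0.10) for FO B (Aged) against FO B (Young). The comparisons share the FO B (Aged) libraries, so a low value there enters both.

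The FPKM values of Ly6c2 were whole multiples of a common step within 0.001 of a read, and so could be read as 129, 128 and 162 reads in FO B (Young), 56, 63 and 62 reads in FO B (Aged) and 373, 448 and 298 reads in ABCs (Aged). Totals were 419, 181 and 1119 reads per group. Reads common to Ly6c1 and Ly6c2 bear on these counts as described for the coding sequences. Plasma cells and monocytes also carry Ly6C. The summed level of 6 plasma cell markers was 110 to 134 FPKM in FO B (Young), 129 to 148 FPKM in FO B (Aged) and 191 to 225 FPKM in ABCs (Aged), with Xbp1 making up most of it. From FO B (Aged) to ABCs (Aged), the mean of Jchain went from 5.93 to 38.2 FPKM, of Prdm1 from 0.379 to 4.46 FPKM, of Sdc1 from 3.11 to 15.8 FPKM, of Xbp1 from 114 to 134 FPKM and of Irf4 from 17.3 to 15.6 FPKM, and Tnfrsf17 was at 0 in 2 of the 3 ABC libraries. The summed level of 6 monocyte and macrophage markers was 8.53 to 22.2, 6.49 to 12.3 and 16.0 to 20.3 FPKM, in the same order. Between the aged groups, Cd68 went from 4.17 to 10.7 FPKM, Lyz2 from 3.98 to 5.10 FPKM and Ccr2 from 0.0364 to 0.775 FPKM (1.93 FPKM in ABC replicate 3), and Csf1r and Cd14 averaged 0.52 and 0.19 FPKM in ABCs (Aged). Of the other lists, the summed level of 5 T cell markers was at most 0.592 FPKM in the FO B libraries and 4.97 to 37.6 FPKM in ABCs (Aged), nearly all of it Cd3g (9.63, 37.0 and 4.93 FPKM), with Cd3e at 0.0332 FPKM on average. The summed level of 5 NK cell markers was at most 0.519 FPKM in the FO B libraries and 0.202 to 2.72 FPKM in ABCs (Aged), where Nkg7 averaged 1.36 FPKM. The summed level of 5 plasmacytoid dendritic cell markers was 82.35 to 89.48 FPKM in FO B (Young). It was 58.8 to 76.3 FPKM in FO B (Aged), below all FO B (Young) libraries, and 72.1 to 94.6 FPKM in ABCs (Aged). Group means, in that order, were 56.6, 40.7 and 27.0 FPKM for Bst2 and 8.05, 5.19 and 1.56 FPKM for Pacsin1. They were 20.6, 21.7 and 51.8 FPKM for Tcf4 and 0.103, 0.12 and 1.13 FPKM for Siglech. Bst2 and Pacsin1 were thus lower on average with age in FO B cells, as was Ly6c2, while Tcf4 and Siglech were not. The 5 conventional dendritic cell markers summed to 3.01 to 3.57, 2.1 to 5.08 and 3.38 to 5.70 FPKM, in the same order. Zbtb46 averaged 0.379, 0.853 and 3.17 FPKM, and Flt3 averaged 1.08, 2.18 and 0.765 FPKM. The 5 neutrophil markers summed to 2.64 to 10.7, 4.13 to 28.1 and 2.475 to 4.26 FPKM, again in the same order. FO B (Aged) replicate 3 stood highest, with S100a8 at 15.2 FPKM and S100a9 at 6.16 FPKM. The part of any of these cells in the Ly6 results was not tested, and in sorted populations fewer cells of a type and less RNA per cell cannot be told apart.

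Ly6c1, the other Ly6C gene, stood at 1.91, 0.895 and 0 FPKM in FO B (Young), at 0.302, 0.531 and 0.177 FPKM in FO B (Aged) and at 0.494, 0.453 and 1.25 FPKM in ABCs (Aged). All 3 groups overlapped and no group mean reached 1 FPKM. Ly6c2 was thus the Ly6C gene with most of the signal in each library, at 24.7 FPKM or more wherever Ly6c1 exceeded 1 FPKM. Ly6c1 values could not be read back as whole reads.

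Ly6i, a close relative of Ly6a, was read as 0, 4 and 3 reads in FO B (Young), 1, 0 and 3 reads in FO B (Aged) and 0, 1 and 0 reads in ABCs (Aged). All 3 groups overlapped. The highest FPKM was 0.685, and a count of 0 in a library allows up to 3 reads, or 0.456 to 0.555 FPKM in these libraries. A difference between groups was not detectable at this depth.

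Ly6k, the sperm gene, stood at 12.9, 14.8 and 9.10 FPKM in FO B (Young), at 13.2, 8.49 and 19.7 FPKM in FO B (Aged) and at 42.0, 27.6 and 5.83 FPKM in ABCs (Aged). ABC replicates 1 and 2 held the highest values of the 9 libraries and ABC replicate 3 the lowest, so the groups overlapped. In reads these were 193, 140 and 27 in ABCs (Aged), against 45 to 98 in the 6 FO B libraries. The means were 12.3 ± 2.92, 13.8 ± 5.63 and 25.2 ± 18.2 FPKM (SD, n = 3). The log2 fold change of 0.53 (SE 0.65) for ABCs (Aged) against FO B (Aged) became 1.32 without ABC replicate 3 and -0.01 without ABC replicate 1. It was 0.11 (SE 0.27) for FO B (Aged) against FO B (Young), and -0.17 without FO B (Aged) replicate 3.

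**Figure D4:**
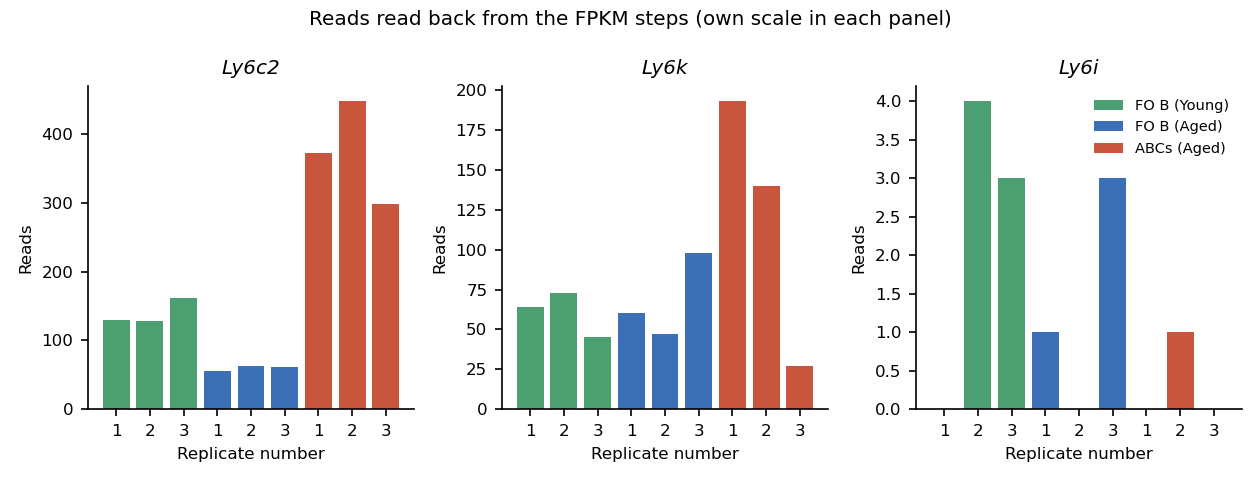
Reads of Ly6c2, Ly6k and Ly6i (y axis, own scale in each panel) in each library, by replicate number and group. The ABC libraries hold 298 to 448 reads of Ly6c2, 27 to 193 reads of Ly6k and at most 1 read of Ly6i.

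In limma's fit across all genes that averaged 1 FPKM or more, 5 of the 7 members were fitted and Ly6c1 and Ly6i were not. At an FDR under 0.01, Ly6a and Ly6c2 were called higher and Ly6d lower in ABCs (Aged) than in FO B (Aged), where 12.0% of the 10412 genes fitted were called higher and 7.86% lower. At an FDR under 0.05, Ly6c2 was called lower and no member higher in FO B (Aged) than in FO B (Young), where 0.346% of 10122 genes were called higher and 0.119% lower. Since the members were selected on the same comparisons, these counts are not read against the background. An unadjusted p under 0.05 was reached by 46.7% of the genes fitted in ABCs (Aged) against FO B (Aged) and by 12.8% of those fitted for age, the background for the gene lists below. These lists were also chosen with earlier results of these data known. Their limma FDR values and counts are therefore not independent of that choice. The call of Ly6d was lost when FO B (Aged) replicate 1, 2 or 3 or ABC replicate 2 was left out, with log2 fold changes of -0.90, -0.97, -0.86 and -0.92, and also with upper quartile scaling, with the replicate block or with no filter on low values. The call of Ly6a and the age call of Ly6c2 were lost with no filter.

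**Figure D5:**
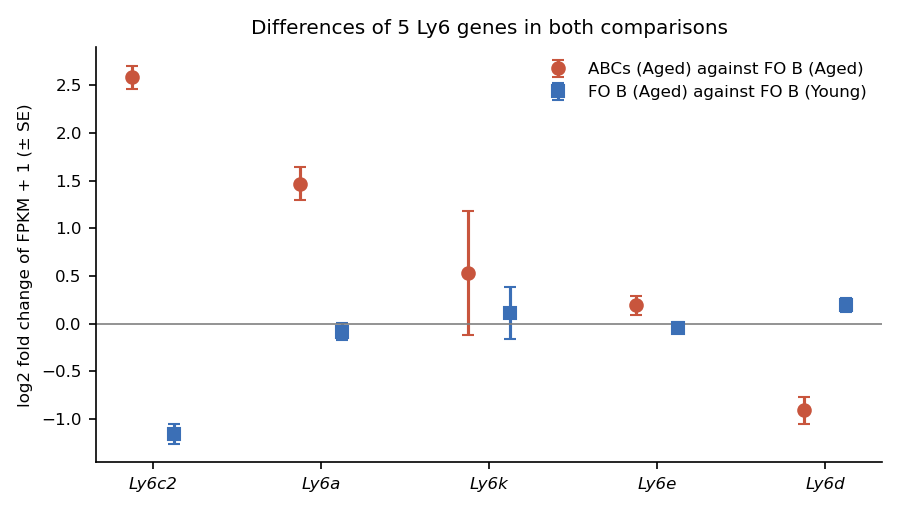
Log2 fold change of FPKM + 1 with its SE (y axis) for the 5 fitted Ly6 genes, for ABCs (Aged) against FO B (Aged) (circles) and FO B (Aged) against FO B (Young) (squares). Ly6c2 lies at 2.58 and -1.15, and Ly6d at -0.91 and 0.20.

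Atf6 and Fam3c were among the 3 genes whose profile over the 9 libraries was most like that of Ly6a, of 10375 genes averaging 1 FPKM or more, with root mean square differences of the centred log2(FPKM + 1) values of 0.11 and 0.11. Fam3c averaged 69.9, 63.1 and 187 FPKM in FO B (Young), FO B (Aged) and ABCs (Aged). Nearest to Ly6c2 were Hpse, Hmox1 and BC147527, at 0.36, 0.38 and 0.38, and Hpse averaged 12.2, 8.41 and 32.2 FPKM. The likeness of Ly6c2 to its nearest genes was thus looser than that of Ly6a.

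Other genes of the Ly6/uPAR domain family were mostly below the level that was fitted. Of 37 symbols, 30 were found and 10 of these were at 0 in all libraries, and 4 were fitted in ABCs (Aged) against FO B (Aged), with 1 higher, 1 lower and 2 not past the test, where 12.0% of all genes were higher and 7.86% lower (median log2 fold change -0.34, against -0.01 over all genes). Plaur, the urokinase receptor, rose from 159 ± 12.8 to 392 ± 47.8 FPKM (log2 fold change 1.30, SE 0.11, limma FDR 0.000201, 1.91e-05 to 0.00854 over the alternatives), and the log2 fold change was 1.40 without ABC replicate 3. Lynx1, a modulator of nicotinic receptors, fell from 9.83 ± 0.577 to 4.23 ± 1.16 FPKM (log2 fold change -1.07, SE 0.16, limma FDR 0.00263, 0.000358 to 0.03 over the alternatives), with no overlap between the groups. Without FO B (Aged) replicate 1, 2 or 3 or ABC replicate 1 its limma FDR was 0.0169, 0.0152, 0.013 and 0.011, and without ABC replicate 3 the log2 fold change was -0.99.

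With age in FO B cells, none of 5 fitted genes of this family passed limma's test, at an FDR threshold of 0.05, although the unadjusted p was under 0.05 for 3, against 12.8% of all genes (median log2 fold change 0.15, against 0.00 over all genes). The largest difference, named here after its values were seen, was that of 2010109I03Rik, at 5.04, 7.13 and 4.86 FPKM in FO B (Young) and 0.734, 2.47 and 1.14 FPKM in FO B (Aged). The libraries did not overlap, with 252 and 68 reads in all (log2 fold change -1.49, SE 0.26, limma FDR 0.0661, 0.0161 to 0.411 over the alternatives). In ABCs (Aged) it stood at 0.509, 1.05 and 0.577 FPKM, or 31 reads.

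Of the enzymes that build, attach and remodel the GPI anchor, 30 were fitted in ABCs (Aged) against FO B (Aged), and 3 were higher, 1 was lower and 26 did not pass limma's test at an FDR under 0.01, where 12.0% of all genes were higher and 7.86% lower. The median log2 fold change was 0.03, and 11 of the 30 had an unadjusted p under 0.05, against 46.7% of all genes. Pgap1, which removes an acyl chain from the anchor after attachment, fell from 10.8 ± 1.82 to 1.87 ± 0.682 FPKM (log2 fold change -2.06, SE 0.21, limma FDR 0.000485). Pigp, a subunit of the complex for the first step of synthesis, rose by 0.68 on the log2 scale (SE 0.12, limma FDR 0.00429), and Pigyl rose by 0.49 (SE 0.09, limma FDR 0.00501). Pigs, a subunit of the transamidase that attaches the anchor, rose by 0.54 (SE 0.08, limma FDR 0.00178). The limma FDR of Pigp was 0.0133 to 0.0227 without FO B (Aged) replicate 1 or 3 or ABC replicate 1 or 2, and that of Pigyl was 0.0114 to 0.0255 without any FO B (Aged) library or ABC replicate 1 or 2 and 0.0103 with no trend. With no filter on low values none of the 30 passed, with a limma FDR of 0.0145 for Pgap1, 0.0159 for Pigs, 0.0315 for Pigyl and 0.0454 for Pigp. Without ABC replicate 3, the log2 fold changes were -1.85 for Pgap1, 0.70 for Pigp, 0.52 for Pigyl and 0.50 for Pigs. With age in FO B cells, none of the 30 passed limma's test, and 1 did so before adjustment, at a p under 0.05, against 12.8% of all genes.

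Among other GPI-anchored proteins, 8 of 22 were fitted, and 2 were higher, 2 lower and 4 not past limma's test in ABCs (Aged) against FO B (Aged), where 12.0% of all genes were higher and 7.86% lower (median log2 fold change 0.22). An unadjusted p under 0.05 was found for 6, against 46.7% of all genes. Nt5e, the ecto-enzyme CD73, rose from 0.843 ± 0.263 to 63.6 ± 9.27 FPKM (log2 fold change 5.13, SE 0.15, limma FDR 4.1e-06). Cd48, a ligand of SLAM family receptors, rose by 0.37 (SE 0.06, limma FDR 0.00444), but the limma FDR was 0.015 to 0.025 without any FO B (Aged) library or ABC replicate 1 or 2, 0.0166 with the replicate block, 0.0245 and 0.0179 under quantile and upper quartile scaling, 0.0161 with no filter and 0.0131 with no trend. Cd55, which limits complement, fell from 410 ± 43.1 to 46.2 ± 28.2 FPKM (log2 fold change -3.39, SE 0.53, limma FDR 0.0028), and Cd24a, a B cell maturation marker, fell from 364 ± 27.5 to 75 ± 40.2 FPKM (log2 fold change -2.46, SE 0.44, limma FDR 0.0049). The calls of Cd24a and Cd55 were lost when any one FO B (Aged) library was left out, with limma FDR of 0.0232 to 0.0254 and 0.0156 to 0.0176. ABC replicate 3 held the lowest values of both, 13.8 FPKM of Cd55 against 59.3 and 65.4 FPKM and 28.6 FPKM of Cd24a against 95.5 and 100.8 FPKM. Without it the log2 fold changes were -2.70 for Cd55, -1.88 for Cd24a, 5.02 for Nt5e and 0.40 for Cd48. With age in FO B cells, none of 7 fitted genes passed limma's test, and 2 were under 0.05 before adjustment, against 12.8% of all genes.

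Ly6a, Ly6c and Ly6e are known to respond to interferon signalling. Of 13 fitted receptors and factors of that pathway, in ABCs (Aged) against FO B (Aged), 2 were higher, 2 lower and 9 not past limma's test, where 12.0% and 7.86% of all genes were higher and lower. The log2 fold change was below 0 for 11 of the 13 (median -0.26), or 9 with upper quartile scaling, and 8 had an unadjusted p under 0.05, against 46.7% of all genes. The count lower ran from 0 to 5 over the alternatives, with 5 at an FDR under 0.05. Tbx21, the transcription factor T-bet that interferon-gamma signalling raises, rose from 6.97 ± 2.03 to 178 ± 11.9 FPKM (log2 fold change 4.52, SE 0.18, limma FDR 1.24e-05). The study names Tbx21 among the genes upregulated in ABCs of the same RNA-seq, so its rise is not independent of that report. Tyk2, a non-receptor kinase, rose by 0.77 (SE 0.11, limma FDR 0.00196). Jak2, the kinase of the interferon-gamma receptor, fell from 26.7 ± 2.78 to 9.06 ± 3.46 FPKM (log2 fold change -1.52, SE 0.26, limma FDR 0.00406), and Ifnar1, a chain of the type I receptor, fell by 0.36 (SE 0.08, limma FDR 0.0092, up to 0.324 over the alternatives). The call of Ifnar1 was lost whichever library was left out (limma FDR 0.019 to 0.0362), with the replicate block (0.026), with upper quartile scaling (0.324) and with no trend (0.0103). That of Jak2 was lost without any FO B (Aged) library or ABC replicate 1 (limma FDR 0.011 to 0.0226), with upper quartile scaling (0.0119) and with no filter (0.0528), and that of Tyk2 without FO B (Aged) replicate 2 or 3 (0.0111 and 0.0122) and with no filter (0.0203). Without ABC replicate 3, the log2 fold changes were 4.57 for Tbx21, 0.81 for Tyk2, -1.21 for Jak2 and -0.35 for Ifnar1. With age in FO B cells, Irf1 rose from 148 ± 5.29 to 207 ± 21.0 FPKM (log2 fold change 0.48, SE 0.08, limma FDR 0.0404, up to 0.331 over the alternatives), and the other 12 did not pass. Before adjustment 7 of the 13 were under 0.05, against 12.8% of all genes. The call of Irf1 was lost with the replicate block (limma FDR 0.0764), with no filter, no trend, TPM or upper quartile scaling or all 9 libraries in the fit, and without any FO B (Young) library or FO B (Aged) replicate 1 or 3 (limma FDR 0.0803 to 0.223).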

How the data were processed

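RNA-seq of 9 libraries was analysed, with groups and replicate numbers taken from the sample titles. The authors deposited FPKM, 1 value per gene symbol and library. According to the methods, a SMART-Seq HT kit gave the cDNA, and single-end reads were aligned to mm10. The submitters' processing notes name TopHat2 2.1.1, Bowtie2 2.2.8, SAMtools 0.1.18 and Cuffdiff 2.2.1, versions that differ in part from those in the methods. The gene annotation is not given in the sources used here. Differences between library preparations and reads shared by copies are carried in these values.

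From FPKM, log2(FPKM + 1) was fitted (R 4.3.3, limma 3.58.1: lmFit, eBayes with a trend, Benjamini-Hochberg FDR), with the 6 libraries compared and genes averaging 1 FPKM or more, so fold changes of low genes are understated. Calls were made at an FDR under 0.01 between cell types and 0.05 for age. Simulated data were called at an FDR under 0.05 in both comparisons, so recovery at the 0.01 used between cell types was not measured. In simulated data for ABCs (Aged) against FO B (Aged), 80 of 100 genes changed by 1 on the log2 scale were called among 10412 genes. Of those changed by 2, 93 of 100 were called, with 6 false calls. For FO B (Aged) against FO B (Young), 87 and 98 of 100 were called among 10122 genes, with 9 false calls. Whole reads were accepted within 0.02 of a read for a gene in all libraries, which held for 3 members, and served for counts only. Mapped reads were estimated from 463 genes with a single annotated transcript. Coding sequences, with 1 transcript per gene, were aligned with Biopython 1.88.

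The members and gene lists were chosen with earlier results of these data known. Named were all 7 members, up to 3 list genes per direction that passed the test, and the 3 genes nearest in profile for members whose group means spanned at least 1 on the log2 scale. Some items are not reported here. The alternatives changed the pseudocount (0.1, 0.01), the filter (none, 5 FPKM), the scaling (quantiles, TPM, upper quartile), the trend, the libraries fitted (all 9, or each left out), the block (replicate number) and the thresholds.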

Additional observations from a re-analysis of the deposited data

How the results depend on the processing

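Log2 fold changes of Ly6c2, Ly6a and Ly6d for ABCs (Aged) against FO B (Aged) and of Ly6c2 for age kept their direction under all alternatives run. Scaling to the upper quartile shifted the median of all genes to 0.15 and -0.12 in the 2 comparisons, and gave 2.75 for Ly6c2 and 0.38 for Ly6e in ABCs (Aged) against FO B (Aged), and 0.065 for Ly6d and -0.17 for Ly6e with age. Quantile normalization gave 0.056 for Ly6d with age. With no filter on low values, 1 member (Ly6c2) was called higher and 0 lower in ABCs (Aged) against FO B (Aged), 0 other Ly6/uPAR genes were lower there, and 0 members were lower with age. Members called lower in ABCs (Aged) numbered 0 with upper quartile scaling and 0 to 1 with a library left out. Other Ly6/uPAR genes lower there numbered 0 to 1 with a library left out, and 0 were higher and 0 lower with a log2 fold change above 2.3 also required. With age, 1 of them was lower with upper quartile scaling, and 0 to 1 with a library left out.

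Same-numbered libraries deviated together with correlations of 0.08, -0.02 and 0.11 in ABCs (Aged) against FO B (Aged) and -0.05, 0.14 and -0.10 with age. These weak values do not settle whether such libraries came from the same mouse or batch, which the labels do not state. With the replicate block, 0 members were called lower in ABCs (Aged) (Ly6d -0.91) and 1 other Ly6/uPAR gene was lower with age, and the calls of Cd48, Ifnar1 and Irf1 were lost. In all, 10412 genes gave 964 higher and 535 lower calls with the block. Over all alternatives, the GPI anchor list had 0 to 5 genes higher and 0 to 1 lower, other GPI-anchored proteins 1 to 3 and 0 to 2, and interferon signalling 1 to 2 and 0 to 5, in ABCs (Aged) against FO B (Aged). With no filter, the list calls of Lynx1, Pgap1, Pigp, Pigs, Pigyl, Cd24a, Cd48, Cd55, Jak2, Tyk2 and Irf1 were lost. The depth limits Ly6i and Ly6c1.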
